A study of Homo sapiens with 6 samples.

Results

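The regions described here are the promoters of 12191 stand-alone long noncoding RNA (lncRNA) genes, whose chromatin accessibility was assayed by ATAC-seq in HLF, a human liver cancer line. Members were the autosomal genes of type lncRNA in GENCODE release 44 whose 5′ end lay more than 5 kb from the start of every annotated protein-coding transcript, and each region was the gene start ± 1 kb in hg38. They made up 66.3% of the 18390 autosomal lncRNA genes, and 12191 of 37501 promoters when protein-coding genes were added. In 1136 members the region overlapped that of another member, so the promoters formed 11603 distinct windows. The comparison sets were the 6199 promoters of other lncRNA genes, which lie within 5 kb of a coding start, and 19111 protein-coding promoters. ATAC-seq uses the Tn5 transposase to cut and tag DNA that nucleosomes do not shield, and a peak summit marks the point of highest cutting in an open region. One group of 3 libraries came from cells given DMSO, the vehicle, and the other 3 came from cells given 5 μM SNDX-5613, a small molecule that blocks the binding of menin to the histone methyltransferase MLL1. All 6 libraries came from the same cell line and are labelled as 1 batch. The labels give 24 h of treatment, while the study's methods describe a longer exposure for this assay, so the duration behind these values is uncertain.

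LncRNAs are transcripts longer than the small RNA classes that are not translated into protein. They are usually spliced and made by RNA polymerase II, and many are expressed in few cell types and at low levels. Some act as RNA in the nucleus, as scaffolds or in silencing of neighbouring genes, others serve mainly to carry small nucleolar RNAs or microRNAs in their introns, and for many no function is known. Because a lncRNA start close to a coding gene often shares that gene's open promoter, a start that stands alone is easier to assign to the lncRNA itself.

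Most members had no called peak. In 8672 of 12191 members (71.1%) no summit fell in the window in any library, and 1332 members (10.9%) had a summit in all 6 libraries. A further 581 had a summit in each library except SNDX-5613 replicate 3, 730 had one in a single library and 876 had other patterns. By the same count, 28.1% of protein-coding promoters had no summit in any library and 56.2% had one in all 6. The lists held 124395 to 148874 summits in 5 libraries and 47714 in SNDX-5613 replicate 3, and read depth was not given. That library stands apart, and the main treatment comparisons are also given without it.

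The promoters of HLF marker genes were checked against the label. Summits were present in all 6 libraries at VIM, CDH2, ZEB1 and FN1, the mesenchymal markers, and at EPCAM, KRT8 and KRT18 of the 4 epithelial markers. No summit was found at the hepatocyte markers ALB, APOA1, SERPINA1 and HNF4A, or at any of the 4 leukocyte and 3 endothelial markers. TTR had a summit in 5 libraries. Mesenchymal promoters were thus open in this line, and those of these 4 hepatocyte markers were not called.

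The following sequences show what open members looked like. Each is 201 bases of hg38 around the strongest summit, on the strand of the gene, and capitals mark the short motifs searched on both strands: the CCAAT box read by NF-Y, GGGCGG read by SP factors, TGANTCA read by AP-1, CATTCC read by TEAD, AGATAA read by GATA factors, TATAAA read by the TATA-binding protein, and CTCF. Overlapping motifs were each counted. A match is a description of the letters and not a site shown to be bound. The first pair holds a CpG-rich housekeeping promoter, DANCR (chr4:52712275-52712475, plus strand), and the member with the highest minimum rank, LINC00200 (chr10:1159664-1159864, plus strand).
DANCR: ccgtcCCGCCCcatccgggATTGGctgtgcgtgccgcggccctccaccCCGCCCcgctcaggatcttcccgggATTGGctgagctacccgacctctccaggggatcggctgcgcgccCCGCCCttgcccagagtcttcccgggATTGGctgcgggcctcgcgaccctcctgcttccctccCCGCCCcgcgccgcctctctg
LINC00200: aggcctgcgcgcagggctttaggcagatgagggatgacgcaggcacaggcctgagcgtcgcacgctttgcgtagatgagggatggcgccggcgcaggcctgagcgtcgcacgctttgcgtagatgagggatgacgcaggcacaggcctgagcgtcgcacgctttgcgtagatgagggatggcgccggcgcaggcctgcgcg

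The next pair shows CpG-poor open members that carry AP-1 motifs, LINC01275 (chr20:50166135-50166335, minus strand), whose window also covers ENSG00000234698 on the other strand, and CYTOR (chr2:87455360-87455560, plus strand), whose window also covers NCAL1 and whose stretch has 1 near-identical copy elsewhere.
LINC01275: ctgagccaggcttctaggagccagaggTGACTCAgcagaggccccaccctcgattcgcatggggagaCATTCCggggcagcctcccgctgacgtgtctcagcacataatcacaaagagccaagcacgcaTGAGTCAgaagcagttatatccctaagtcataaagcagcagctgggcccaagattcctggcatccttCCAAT
CYTOR: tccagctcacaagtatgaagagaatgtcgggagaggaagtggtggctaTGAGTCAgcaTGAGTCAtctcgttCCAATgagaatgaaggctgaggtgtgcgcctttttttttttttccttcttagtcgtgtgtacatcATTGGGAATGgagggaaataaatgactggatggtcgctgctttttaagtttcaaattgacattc

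The last shows a member that differed between the treatment groups, TSPEAR-AS2 (chr21:44517356-44517556, plus strand), ranked higher with SNDX-5613.
TSPEAR-AS2: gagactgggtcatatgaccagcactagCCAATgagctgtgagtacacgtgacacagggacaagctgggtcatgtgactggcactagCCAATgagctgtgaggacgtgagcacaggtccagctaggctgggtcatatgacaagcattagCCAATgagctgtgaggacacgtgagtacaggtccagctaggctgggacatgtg

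DANCR held 3 CCAAT and 4 GGGCGG matches in this stretch, LINC01275 and CYTOR held 2 TGANTCA matches each, and TSPEAR-AS2 held 3 CCAAT matches. In TSPEAR-AS2 the letters next to the 3 boxes recurred with them, so the boxes lay in copies of a repeated unit. The LINC00200 stretch held none of the motifs. It was a tandem repeat, in which 84.8% of bases equalled the base 96 bp away.

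The share of open promoters was then compared between promoter sets within each library. Members with a summit made up 18.6%, 21.7% and 20.2% of all members with DMSO (replicates 1 to 3 in order), and 22.6%, 21.4% and 11.9% with SNDX-5613. The first 5 values lay close together and the last lay far below them. Other lncRNA promoters had a summit in 44.5% to 55.0% of cases and protein-coding promoters in 57.1% to 67.3%. The share of members minus that of protein-coding promoters was -45.05 percentage points on average and negative in 6 of 6 libraries (two-sided exact sign-flip permutation p = 0.03125, the smallest that 6 libraries allow). Against other lncRNA promoters the difference was -33.0 percentage points, again in 6 of 6 libraries (two-sided exact sign-flip permutation p = 0.03125). The 4 comparisons of this kind that were planned all gave this p, and the Benjamini-Hochberg adjusted value is therefore 0.03125 for each. Protein-coding promoters were thus open 2.98 to 3.44 times as often as members in 5 libraries and 4.81 times as often in SNDX-5613 replicate 3.

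**Figure D1:**
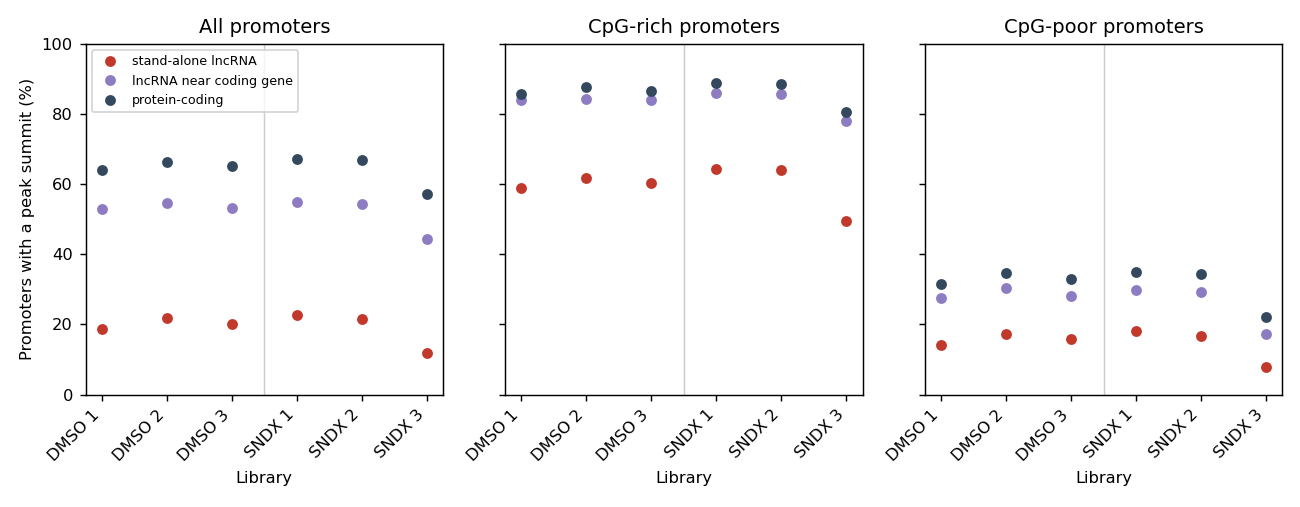
Percent of promoters with a peak summit within 1 kb of the gene start (vertical axis) in each of the 6 libraries (horizontal axis), for all promoters, CpG-rich promoters and CpG-poor promoters, with 1 point per library and promoter set. Stand-alone lncRNA promoters sit below both other sets in every panel and library, and SNDX-5613 replicate 3 is lowest in each set.

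Open members were centred on their gene starts. In bins of 500 bp, the bin just upstream of the gene start was the highest within 10 kb on either side, with a summit in 6.79% to 12.8% of members, against 0.968% to 2.85% of members in the bins more than 5 kb away. The enrichment at the start was 4.42 to 7.02 times for members, 8.81 to 17.8 times for other lncRNA genes and 12.4 to 26.7 times for protein-coding genes. The median distance from the gene start to the strongest summit in the window was 153.5 to 204 bp across libraries in members and 89 to 92 bp in protein-coding promoters. A summit within 200 bp was found for 49.8% to 56.1% of open members, against 67.9% to 71.02% of open coding promoters. Open members held 1.66 ± 0.180 summits per window and open coding promoters 2.14 ± 0.342 (SD, n = 6 libraries). In SNDX-5613 replicate 3, the shortest list, the counts were 1.36 and 1.58.

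**Figure D2:**
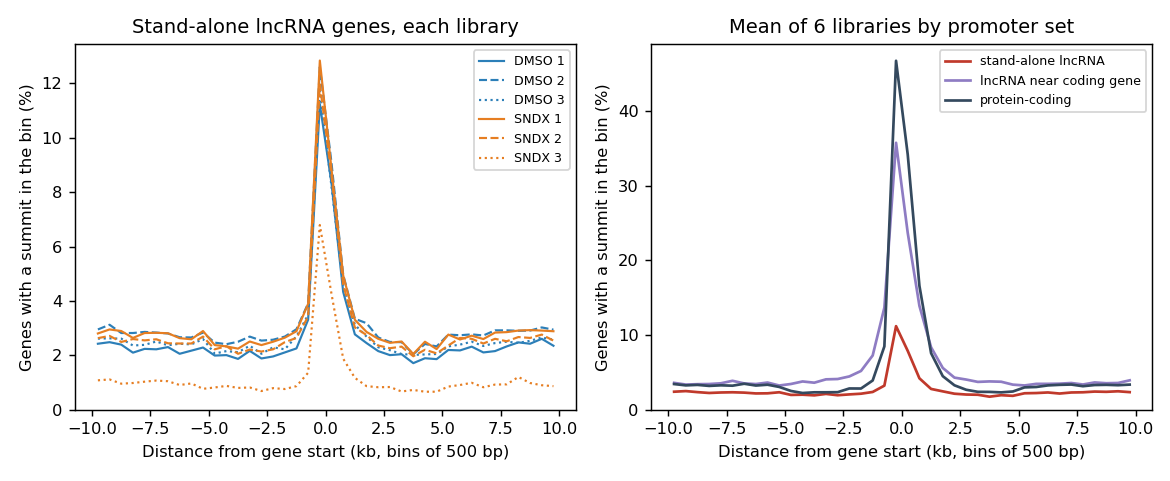
Percent of genes with a summit in each 500 bp bin (vertical axis) by distance from the gene start in kb (horizontal axis, upstream to the left), for stand-alone lncRNA genes in each library (left) and as the mean of 6 libraries for the 3 promoter sets (right). All libraries peak at the gene start, and the line of SNDX-5613 replicate 3, at 6.79% in its highest bin, runs below the other 5.

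Members with and without a summit differed in base composition. A CpG-rich promoter was defined here as 501 bp around the gene start with at least 50% GC and an observed to expected CpG ratio of at least 0.6, the composition of CpG islands, which stay unmethylated at most housekeeping genes. Only 1206 members (9.89%) were CpG-rich, against 59.8% of protein-coding and 44.8% of other lncRNA promoters. CpG-rich members had a summit in 60.4% ± 1.41 of cases with DMSO and 59.3% ± 8.45 with SNDX-5613, and the 10985 CpG-poor members in 15.8% ± 1.57 and 14.2% ± 5.60 (SD, n = 3 each). The difference between the classes averaged 44.9 percentage points and was positive in 6 of 6 libraries (two-sided exact sign-flip permutation p = 0.03125). Of the 1332 members open in all 6 libraries, 44.1% were CpG-rich, and of the members with no summit 4.01% were.

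Members also differed from coding genes of the same CpG class. Among CpG-rich promoters, members were open less often than protein-coding promoters with a difference of -26.5 ± 2.39 percentage points, and among CpG-poor promoters the difference was -16.8 ± 1.25 (SD over 6 libraries, lower in 6 of 6, two-sided exact sign-flip permutation p = 0.03125 for each). The classes do not hold composition equal. Among promoters open in all 6 libraries, median GC was 64.3% in CpG-rich members and 66.9% in CpG-rich coding promoters. In the CpG-poor class it was 51.1% and 53.7%. The part of GC in these differences was not tested. These within-class comparisons were added after the values were seen.

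Open members also ranked lower. The within-file percentile places each summit's -log10 p among all summits of its own list. A shorter list leaves out weaker sites, so the same site tends to have a lower percentile there, as in SNDX-5613 replicate 3. The median percentile of open members was 71.5, 69.9 and 70.6 with DMSO and 68.3, 68.2 and 62.6 with SNDX-5613, while that of open protein-coding promoters was 93.4, 94.5 and 93.8, and 93.8, 93.4 and 85.0. The mean difference was -23.8 percentile points (lower in 6 of 6 libraries, two-sided exact sign-flip permutation p = 0.03125). Ranked by fold enrichment in place of -log10 p it was -15.2. In the CpG-rich class the difference was -5.23 ± 0.984, and in the CpG-poor class -20.8 ± 1.08 (SD, n = 6 libraries, two-sided exact sign-flip permutation p = 0.03125 for each). Open CpG-rich members had a median percentile of 88.2 ± 4.37, against 93.5 ± 3.45 for coding promoters, and open CpG-poor members 58.0 ± 3.87, against 78.8 ± 3.07.

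Location and annotation varied along with this. The 9138 members between coding genes had a summit in 22.1% ± 1.46 of cases in DMSO libraries, the 2129 inside a coding gene on the opposite strand in 15.1% ± 1.95 and the 924 inside a coding gene on the same strand in 13.3% ± 1.67 (SD, n = 3). Members over 200 kb from a coding start were open in 14.6% ± 0.791 of cases and those 10 to 50 kb away in 23.7% ± 1.82. Members with 5 or more annotated transcripts were open in 33.4% ± 1.43 and those with 1 transcript in 17.0% ± 1.65. Genes known only by an Ensembl identifier, 8768 of the members, were open in 18.0% ± 1.64, genes with a LINC symbol in 23.8% ± 1.42 and the 78 named hosts of small RNAs in 51.7% ± 0.740. The share of CpG-rich promoters was also higher between coding genes (11.96%) than inside them (3.52% on the opposite strand and 4.11% on the same strand), and was 39.7% in small RNA hosts. Its part in these differences was not tested. At the distance limit itself, lncRNA genes just outside the rule, over 4 to 5 kb from a coding start, were open in 19.5% ± 2.45 of 393 cases, and members over 5 to 6 kb away in 21.1% ± 1.26 of 376 cases.

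Motifs around the summits differed between members and coding genes within each CpG class. In CpG-poor promoters, TGANTCA, the core of the AP-1 site that JUN and FOS proteins bind, lay within 100 bp of the strongest summit in 18.8% ± 0.355 of open members and 9.23% ± 1.10 of open coding promoters (SD, n = 6 libraries). AGATAA lay there in 6.19% ± 0.151 of members and 3.25% ± 0.537 of coding promoters. The CTCF motif, bound by the factor that anchors chromatin loops, was found in 5.78% ± 0.480 and 2.29% ± 0.135. CATTCC was found in 14.01% ± 0.317 and 11.3% ± 0.461, and TATAAA in 5.77% ± 0.3001 and 4.17% ± 0.274. GGGCGG went the other way, at 19.9% ± 2.62 of members and 43.7% ± 3.17 of coding promoters, and so did the CCAAT box, at 27.7% ± 0.430 and 30.7% ± 1.00.

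In CpG-rich promoters the CTCF motif was again more frequent in members, at 4.04% ± 0.0501 of open members and 0.785% ± 0.0277 of open coding promoters. The AP-1 core was at 3.88% ± 0.147 and 1.89% ± 0.0604, GGGCGG at 60.8% ± 1.63 and 72.6% ± 0.376, and the CCAAT box at 26.8% ± 1.55 and 32.6% ± 0.317. CATTCC and TATAAA were here less frequent in members, at 5.63% ± 0.279 against 5.91% ± 0.162 and 1.18% ± 0.169 against 1.81% ± 0.121. Of 14 comparisons, 13 had the same sign in 6 of 6 libraries (two-sided exact sign-flip permutation p = 0.03125, Benjamini-Hochberg adjusted p = 0.0337), and the exception was AGATAA in CpG-rich promoters (exact p = 0.219). The sequence is fixed and the libraries share many promoters, so p and SD describe agreement between libraries, not the spread between promoters. Some shares rest on few promoters: TATAAA was held by 8 of the 587 CpG-rich members open in all 6 libraries, and the CTCF motif by 27. Members that share a window or have a near-identical copy elsewhere were each counted. Their part in the motif differences was not tested. Against the other lncRNA promoters, the differences had the same direction as against coding promoters except for the CCAAT box in the CpG-poor class, which other lncRNA promoters held in 26.0% ± 0.898 of cases, below the members (exact p = 0.0625). The CTCF motif lay in 4.24% ± 0.231 of CpG-poor other lncRNA promoters, between the members and the coding promoters. Across all 21064 promoters with a summit in at least 1 library, the shares were 30.0% for CCAAT, 56.3% for GGGCGG, 5.64% for TGANTCA, 8.17% for CATTCC, 2.48% for AGATAA, 2.95% for TATAAA and 1.72% for CTCF. Among CpG-poor promoters open in all 6 libraries, median GC content was 51.1% in members and 53.7% in coding genes, and its part in these differences was not tested. The comparisons of motifs were added after the values were seen.

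**Figure D3:**
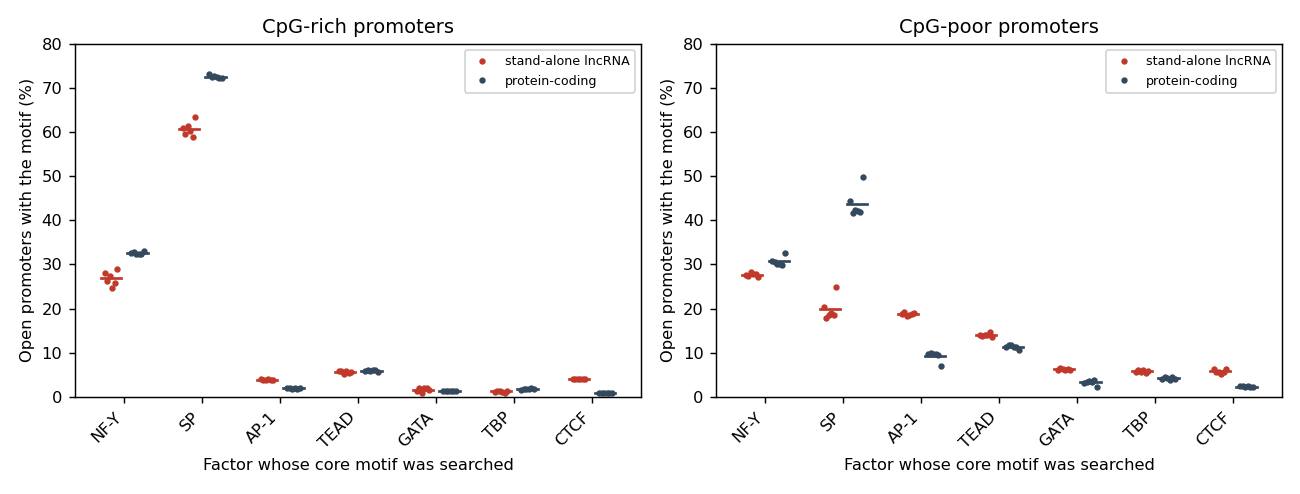
Percent of open promoters with the core motif of each factor within 100 bp of the strongest summit (vertical axis), by factor (horizontal axis), for CpG-rich (left) and CpG-poor (right) promoters. Each point is 1 library and each bar the mean of 6. In the CpG-poor panel, the AP-1 points of lncRNA promoters lie near 18.8% and those of coding promoters near 9.23%, while the SP points of coding promoters lie higher.

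Open members lay in duplicated sequence more often than coding promoters. A near-identical copy of the summit stretch, at 95% identity over 90% of its length or more, was found elsewhere in the genome for 373 of 3519 members open in at least 1 library (10.6%) and for 220 of 13736 coding promoters (1.60%). Over libraries the share was 11.6% ± 1.04 of open members and 1.38% ± 0.124 of open coding promoters (SD, n = 6, two-sided exact sign-flip permutation p = 0.03125). Tandem repeats, in which at least 60% of bases equalled the base at a fixed distance of up to 100 bp, were found in 1.58% ± 0.106 and 0.257% ± 0.0112 (SD, n = 6, two-sided exact sign-flip permutation p = 0.03125). Here too, p and SD describe agreement between libraries that share many promoters, not the spread between promoters. Reads from such sequence can be placed at the wrong copy, and a filter on mapping quality was not stated, so a peak at these members is uncertain in position.

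The strongest members, taken as the 10 with the highest minimum percentile over the 6 libraries, were a mixed group. LINC00200, inside a coding gene on the same strand and 26798 bp from the nearest start of ADARB2, of the RNA-editing enzyme family, was between 99.977 and 99.987 in all 6 libraries. LINC01275 and ENSG00000234698, which share an open region near PEDS1, ranged from 99.87 to 99.96, and PCGF3-AS1, near CPLX1, from 99.66 to 99.98. DANCR and LINC01618, which share a CpG-rich promoter, ranged from 99.48 to 99.97, and no library stood apart. The other 4 were known only by Ensembl identifiers: ENSG00000290832 on chromosome 7, with 3 near-identical copies elsewhere, ENSG00000278932 on chromosome 21, with 4, ENSG00000290523 on chromosome 21 and ENSG00000291100 on chromosome 20, the last 2654806 bp from the nearest coding start. These 4 were at 99.32 or above in every library. Whether regions known to attract spurious reads had been removed was not stated.

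Named members were then described by role, in lists of genes chosen for their known functions. Of the 3 members of the nuclear and RNA stability list, all had a summit in all 6 libraries, beside 10.9% of all members. NORAD, which sequesters PUMILIO proteins and protects chromosome stability, was at percentiles 99.8, 99.6 and 99.1 with DMSO and 99.4, 99.3 and 93.3 with SNDX-5613. MALAT1, an abundant RNA of nuclear speckles, was at 95.6, 95.9 and 94.8, and at 97.4, 96.3 and 95.7. NEAT1, the scaffold of paraspeckles, was weaker, at 85.6, 91.8 and 89.6, and at 89.5, 88.9 and 59.6. In all 3 the promoter was open in both groups, and the lowest value of NEAT1 was in SNDX-5613 replicate 3.

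Most member hosts of small nucleolar RNAs were open. Of the 31 such genes, 16 were members, and the rest, GAS5 and ZFAS1 among them, lay within 5 kb of a coding start. Of the 16 members, 13 had a summit in all 6 libraries (81.2%), SNHG12 had one in SNDX-5613 replicate 2 alone, and SNHG14 and SNHG27 had none. The median of their mean common-set percentiles, a rank among the 14772 promoters open in all 6 libraries, was 65.9, beside 24.6 for all members. DANCR, SNHG15, SNHG25, SNHG11, SNHG30 and SNHG16 lay between 96.4 and 99.97 in every library. SNHG7 had the lowest mean common-set percentile of the 13, and its within-file percentiles were 75.9, 84.8 and 88.3 with DMSO and 90.6, 92.1 and 72.7 with SNDX-5613. Its common-set percentiles were 11.5, 15.7 and 24.1 with DMSO and 29.6, 37.7 and 31.4 with SNDX-5613.

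Hosts of microRNAs were divided. Of 80 genes, 64 were members, of which 20 were open in all 6 libraries (31.2%, beside 10.9% of all members), 7 in all but SNDX-5613 replicate 3, 29 in none and 8 in other patterns. MIR210HG, host of the hypoxia-induced miR-210, was at 98.2 to 99.3 in 5 libraries and 86.8 in SNDX-5613 replicate 3. MIR17HG, host of the growth-promoting miR-17 cluster, was at 85.2, 83.8 and 85.3 with DMSO and 90.3, 86.8 and 85.9 with SNDX-5613. MIRLET7A1HG, which carries members of the tumour-suppressive let-7 family, was at 93.8 to 97.3 in 5 libraries and 83.0 in SNDX-5613 replicate 3. Hosts with no summit at the gene start in any library included MIR122HG, host of the main hepatocyte microRNA, and MIR155HG, host of an immune cell microRNA. MIR34AHG, host of a p53-induced microRNA, and MIR100HG and MIR99AHG were also among them.

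Among imprinted members, which are expressed from 1 parental allele, 1 of 7 was open in all libraries (14.3%, beside 10.9% of all members) and 5 had no summit, beside 71.1% of all members, so the list as a whole lay near the background. KCNQ1OT1, which silences its neighbours in cis, was at 96.1, 97.5 and 96.2 with DMSO and 96.4, 95.7 and 96.0 with SNDX-5613, with replicate 3 of the latter inside the range of the other libraries. H19, the fetal growth-linked RNA, MEG8, MEG9, AIRN and PEG13 had no summit at the gene start in any library, and MEG3 had one at percentile 27.8 in SNDX-5613 replicate 2 alone.

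Of the 12 members on the list of liver and liver cancer lncRNAs, 3 were open in all 6 libraries and 7 in none, beside 10.9% and 71.1% of all members. CYTOR, linked to proliferation and migration of tumour cells, was at 88.2 to 92.6 in 5 libraries and 64.1 in SNDX-5613 replicate 3, and its summit stretch has 1 near-identical copy elsewhere. LUCAT1, a stress-induced lncRNA of tumours, was at 66.8 to 85.3 and 24.8, and PVT1, the neighbour of MYC, at 71.7 to 82.4 and 35.5. By common-set percentile, LUCAT1 was at 7.18 to 17.7 in 5 libraries and 4.88 in SNDX-5613 replicate 3. PVT1 was at 7.49 to 15.4 and 8.36, so its value in that library lay within the range of the others. Those with no summit at the gene start in any library were UCA1, LINC00511, FAM99A, LINC01093, LINC01018, LINC01554 and LINC00261. HNF4A-AS1 had a single weak summit, at percentile 5.54 in SNDX-5613 replicate 1, and FAM99B, whose summit stretch has 1 near-identical copy elsewhere, was at 8.18 to 40.2 in 5 libraries. PURPL, a p53 target, was open in all 6 libraries at 58.4 to 74.9 and 21.2. Of 4 members known from other tissues, MIAT was open in all 6, LINC00461 in all but SNDX-5613 replicate 3, and RMST and DLX6-AS1 in none. None of the 5 developmental lncRNA genes on the lists was a member, since each lay within 5 kb of a coding start.

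**Figure D4:**
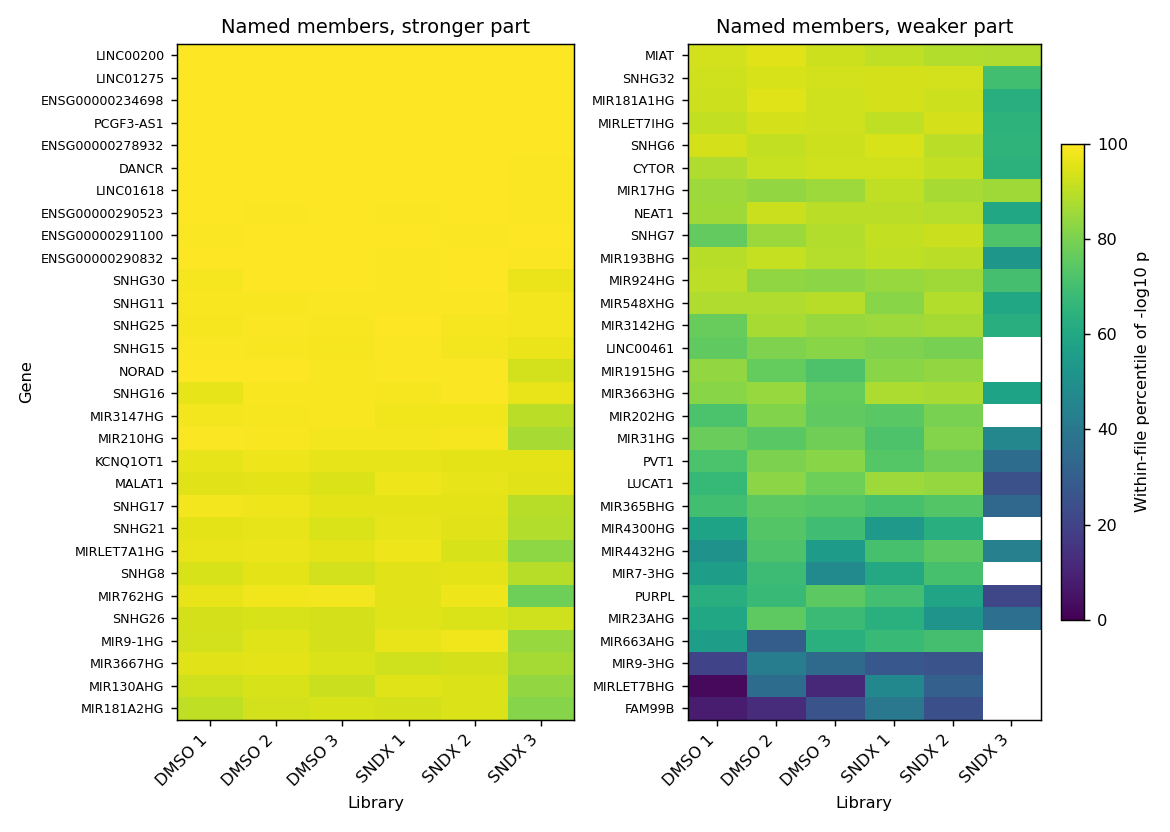
Within-file percentile of the strongest summit's -log10 p (colour, 0 to 100, white for no summit) for named members with a summit in at least 5 libraries (rows, ordered by their mean and split over 2 panels) in each library (columns). The upper rows, such as LINC00200 and DANCR, stay near the top in all 6 columns, and the lower rows lose rank or their summit in SNDX-5613 replicate 3. The shorter list of that library tends to lower its percentiles.

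Whether SNDX-5613 changed the number of open members was asked first. The share with a summit was 20.2% ± 1.55 with DMSO and 18.6% ± 5.88 with SNDX-5613 (mean ± SD of 3 libraries, p = 0.9 by a two-sided exact permutation test, which cannot go below 0.1 with 3 against 3). The difference of -1.55 percentage points lay within the spread of the SNDX-5613 group, and without replicate 3 of that group it was 1.83 points in the other direction. When each list was limited to its 47714 top summits, the length of the shortest list, the shares were 10.9%, 11.3% and 11.5% with DMSO and 11.9%, 11.9% and 11.9% with SNDX-5613. At this equal number the groups did not overlap, with means of 11.2% ± 0.272 and 11.9% ± 0.0342 (mean ± SD of 3 libraries, p = 0.1 by a two-sided exact permutation test, the smallest possible and above 0.05). Without SNDX-5613 replicate 3, and with each list limited to the 124395 summits of the shortest one left, the difference was 1.84 percentage points in place of 0.662. Coding promoters moved in the same direction, from 55.9% ± 0.238 to 56.9% ± 0.233 (mean ± SD of 3 libraries, p = 0.1 by a two-sided exact permutation test), and the change in members minus the change in coding promoters was -0.308 percentage points (two-sided exact permutation p = 0.3).

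The rank of members on the common set was compared next. This set holds the 14772 promoters of all kinds with a summit in all 6 libraries, ranked within each library by -log10 p, so that each library ranks the same promoters. The 1332 members in it had a median percentile of 23.1, 22.5 and 22.9 with DMSO and 24.8, 24.1 and 24.6 with SNDX-5613. Each SNDX-5613 value exceeded each DMSO value, by 1.69 on average (22.8 ± 0.327 against 24.5 ± 0.351, SD, n = 3 each, p = 0.1 by a two-sided exact permutation test). Coding promoters were at 53.5 ± 0.0840 and 53.3 ± 0.144 (mean ± SD of 3 libraries, p = 0.3 by a two-sided exact permutation test). Without SNDX-5613 replicate 3, on a common set rebuilt from 5 libraries, the members' difference was 0.688 in place of 1.69. With all 6 libraries, the difference between members and coding promoters narrowed by 1.88 (two-sided exact permutation p = 0.1).

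This shift depended on the measure of strength. By fold enrichment, the pileup at the summit over its local background, the members' median was 47.4, 45.4 and 44.997 with DMSO and 44.9, 46.4 and 30.1 with SNDX-5613, a difference of -5.45 (two-sided exact permutation p = 0.4, n = 3 each) and of -0.263 without SNDX-5613 replicate 3. The groups overlapped, and only SNDX-5613 replicate 3 lay apart. By fold, the members also stood much nearer to coding promoters, which were at 51.9 ± 0.112 in DMSO libraries, than they did by -log10 p.

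**Figure D5:**
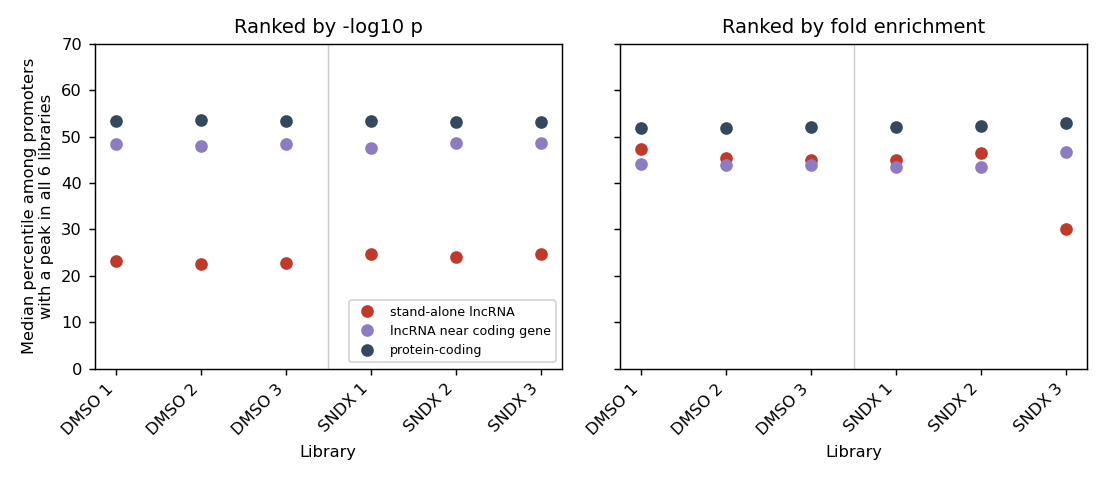
Median percentile of each promoter set among the 14772 promoters open in all 6 libraries (vertical axis) in each library (horizontal axis), ranked by -log10 p (left) or by fold enrichment (right). Stand-alone lncRNA promoters lie at 22.5 to 24.8 on the left, with all SNDX-5613 points above the DMSO points, and at 44.9 to 47.4 on the right apart from SNDX-5613 replicate 3, at 30.1.

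Single members were called ranked higher where all 3 SNDX-5613 percentiles on the common set exceeded all 3 DMSO ones, and ranked lower in the opposite case. By this rule 154 of 1332 members (11.6%) were higher and 102 (7.66%) lower, beside 7.58% and 6.82% of all promoters in the set. Among coding promoters the shares were 7.19% and 6.81%. Calls varied with rank, and 675 of the 1332 members had a mean common-set percentile under 25. There 13.9% of members were higher and 9.33% lower, beside 10.8% and 9.55% of coding promoters. At 25 to 50 the shares were 12.2% and 5.49%, beside 7.60% and 5.98%. At 50 to 75 they were 7.39% and 5.11%, beside 5.69% and 6.11%. At 75 and over they were 4.58% and 7.84%, beside 5.60% and 6.22%. Without SNDX-5613 replicate 3 there were 303 higher and 335 lower members of 1913, which is 15.8% and 17.5%, beside 12.7% and 12.9% of all promoters, so that the excess of higher over lower members did not hold. Of the 154 higher members 153 were also among the 303, and of the 102 lower members 94 were among the 335. The rule is easier to meet with fewer libraries, so this overlap is no separate result. By fold enrichment 70 members were higher and 144 lower, beside 7.62% and 6.42% of all promoters. The calls shared by both measures were 53 higher and 63 lower members. Both measures come from the same peak lists, and the shared calls over all promoters are not given, so this overlap is no separate result.

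The 5 members with the largest differences upward were ENSG00000290112, ENSG00000287117, ENSG00000233288, ENSG00000289201 and TSPEAR-AS2. ENSG00000290112 on chromosome 2, 281731 bp from the nearest start of MYT1L, a neuronal transcription factor gene, was at common-set percentiles 11.2, 6.11 and 10.1 with DMSO and 68.0, 73.6 and 36.3 with SNDX-5613. Its fold enrichment was 14.7, 12.9 and 15.3 with DMSO and 22.9, 23.4 and 10.1 with SNDX-5613, so SNDX-5613 replicate 3 was above the DMSO libraries by rank and below them by fold. ENSG00000287117 on chromosome 4, 89848 bp from the start of DRD5, a dopamine receptor gene, was at 40.1, 37.2 and 51.0, and at 92.7, 86.2 and 91.7. TSPEAR-AS2 on chromosome 21, inside a coding gene on the opposite strand and 22979 bp from the nearest start of KRTAP10-1, a keratin-associated protein gene, was at 69.3, 62.0 and 57.8, and at 94.8, 88.7 and 98.3. These members were picked for the gap between the groups, so that gap is no separate result.

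ENSG00000233288 on chromosome 7 was at 19.3, 24.1 and 30.4 with DMSO and 59.2, 54.8 and 60.9 with SNDX-5613. ENSG00000289201 on chromosome 4 was highest in SNDX-5613 replicate 3, at 16.5, 18.8 and 20.01 against 35.1, 26.4 and 88.2. Of these 5, ENSG00000287117 and TSPEAR-AS2 were also ranked higher by fold enrichment on the common set. TSPEAR-AS2 and ENSG00000233288 each held 3 CCAAT boxes near the summit, and the other 3 held none. The 3 boxes of TSPEAR-AS2 lay in copies of a repeated unit.

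The 5 members with the largest differences downward were PARD6G-AS1, ENSG00000285751, ENSG00000289882 and the pair LINC02327 and LINC02281. PARD6G-AS1 on chromosome 18 was at common-set percentiles 90.4, 65.2 and 73.0 with DMSO and 53.3, 61.9 and 44.4 with SNDX-5613, and its fold enrichment was 24.4, 22.4 and 21.8 against 20.05, 18.7 and 10.9. ENSG00000285751 on chromosome 11, 1080245 bp from the nearest coding start, was at 47.9, 47.9 and 62.6, and at 25.1, 38.3 and 35.0. ENSG00000289882 on chromosome 10 was at 50.1, 49.97 and 45.1, and at 31.4, 39.7 and 16.1. LINC02327 and LINC02281 start in the same window on opposite strands, and their shared region was at 61.0, 44.8 and 50.5, and at 41.9, 39.4 and 20.8. Among the 5, this pair alone was also ranked lower by fold enrichment on the common set.

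Among the listed members, MALAT1, SNHG7, SNHG26 and the microRNA hosts MIR9-1HG, MIR3663HG, MIR130AHG and MIR17HG were ranked higher, and MIR3147HG and MIR365BHG ranked lower. Of members open in all 6 libraries, 1 of 3 on the nuclear list, 2 of 13 small nucleolar RNA hosts and 4 of 20 microRNA hosts were higher. Lower calls took 2 of the 20 microRNA hosts, and the other lists held no call. Over all promoters in the set, 7.58% were higher and 6.82% lower. MALAT1 was at common-set percentiles 60.9, 55.7 and 52.0 with DMSO and 71.6, 64.5 and 83.3 with SNDX-5613, with fold enrichments of 9.38, 9.35 and 8.01, and 10.6, 8.57 and 9.84, which overlapped. MIR9-1HG, host of a neural microRNA, was at 46.2, 49.9 and 44.9, and at 65.0, 76.7 and 51.7. MIR130AHG was at 44.4, 40.7 and 36.0, and at 52.3, 52.8 and 49.6. Of these 9, MIR9-1HG and MIR130AHG were also higher by fold enrichment and none was also lower. MIR365BHG was no longer called lower without SNDX-5613 replicate 3, while the other 8, and the 5 leading members in each direction, kept their calls. Fewer libraries make this rule easier to meet, so a kept call is no separate result.

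Gains and losses of whole peaks were few. A member was gained if all 3 SNDX-5613 libraries and 0 DMSO libraries had a summit there, and lost in the opposite case. There were 15 gained members, 0.123% of members, beside 0.104% of all 37501 promoters, and 28 lost members, 0.230%, beside 0.181% of all promoters. Without SNDX-5613 replicate 3, 120 members were gained and 29 lost, beside 0.877% and 0.197% of all promoters. At the equal number of top summits the balance turned, to 41 gained and 9 lost members, beside 0.349% and 0.064% of all promoters. None of the 15 gained members was among the 41, and none of the 28 lost members was among the 9. No exact test applies to these counts, which come from 1 split of the libraries.

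The 5 gained members with the highest minimum percentile were RPL23AP7, ENSG00000235127, ENSG00000259033, ENSG00000287545 and ENSG00000257729, the last of which tied with others. RPL23AP7 on chromosome 22, a lncRNA gene named for a ribosomal protein pseudogene, was at percentiles 61.6, 71.3 and 29.0 in the SNDX-5613 libraries, and its summit stretch has 1 near-identical copy elsewhere. ENSG00000235127 on chromosome 2 was at 27.4, 50.6 and 23.8, and ENSG00000259033 on chromosome 14 at 31.8, 29.6 and 23.8. Apart from RPL23AP7, these summits ranked low or in the middle of their lists. Of the 15, 13 were CpG-poor, and of the 28 lost members 22 were, beside 2661 of the 3519 members open in any library. A CCAAT box was held by 7 of the 15 and 15 of the 28, beside 924 of 3519. It was held by 36 of 120 gained and 15 of 29 lost members without SNDX-5613 replicate 3, and at the equal number by 14 of 41 and 2 of 9, so its share among the calls changed with the rule.

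The 5 lost members with the highest minimum percentile were LINC02566, ENSG00000286339, ENSG00000250993, ENSG00000285921 and ENSG00000258354. LINC02566 on chromosome 12 was at percentiles 61.3, 51.1 and 54.2 in the DMSO libraries. ENSG00000286339, inside a coding gene on the opposite strand and 8408 bp from the nearest start of CEP85L, was at 58.1, 44.4 and 60.6, and ENSG00000250993, 2022868 bp from the nearest coding start, at 59.8, 43.3 and 52.3. All 3 were peaks of middle rank in DMSO libraries. ENSG00000258354 on chromosome 16, near the duplicated NPIPA1 gene, has 4 near-identical copies elsewhere.

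The CCAAT box was examined because the study asks how menin and NF-Y, which binds this box, act together. Of the 1332 members open in all 6 libraries, 378 held a CCAAT box near the summit. Their median common-set percentile was 36.01 ± 0.581 with DMSO and 36.4 ± 2.301 with SNDX-5613, a difference of 0.411 (mean ± SD of 3 libraries, p = 1 by a two-sided exact permutation test), which was 0.154 without SNDX-5613 replicate 3. The 954 members without the box were at 19.9 ± 0.222 and 21.8 ± 0.371 (mean ± SD of 3 libraries, p = 0.1 by a two-sided exact permutation test). Members with the box thus ranked higher than those without it in both groups. Calls of higher and lower rank took 11.1% and 8.20% of members with the box, and 11.7% and 7.44% of those without. For none of the 7 motifs, in either CpG class, did the share of open members with the motif differ between the treatment groups at an adjusted p under 0.05 (14 two-sided exact permutation tests, smallest p = 0.1), with differences from -0.682 to 1.89 percentage points.

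The consensus sets that the authors made for each group held more members in the SNDX-5613 set (21.3%) than in the DMSO set (20.4%), while the mean share with a summit over all 6 libraries was lower with SNDX-5613. A consensus region overlapped the window of 2481 members in the DMSO set and of 2599 in the SNDX-5613 set, with 2339 in both. Those in the DMSO set alone, 142, were 5.72% of the members in that set, and those in the SNDX-5613 set alone, 260, were 10.0% of the members in that set. For coding promoters the shares found in 1 set alone were 1.296% and 3.04%. These shares take only promoters in that consensus set as base, and fewer members than coding promoters are in it. Over all promoters of each kind, the counts were 142 and 260 of 12191 members and 163 and 389 of 19111 coding promoters. For other lncRNA promoters they were 69 and 130 of 6199. These sets pool replicates, so no spread was available.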

How the data were processed

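Peak lists of 6 ATAC-seq libraries of HLF cells were analysed, with groups and replicate numbers from the labels. The members, gene lists and tests were chosen with earlier results of these data known. Per the labels' processing notes, the authors used Trim Galore 0.6.7, Bowtie2 2.3.4.1, Picard 2.20.0, SAMtools, deepTools 3.5.4 and MACS2 with hg38. Peaks were called per library, and RMSPC combined replicates into consensus sets. Not stated were a Tn5 shift, the removal of duplicates and any filter by mapping quality or blacklist. The lists were checked against hg38, and 0 regions ended past a chromosome. Unfiltered reads in repeated sequence can add peaks, and a shift of a few bases moves summits by less than the windows used.

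For each summit the deposited lists hold 3 measures from the authors' peak caller: a fold enrichment over local background (a ratio), -log10 p and -log10 q. The deposited score column was not used. The deposited consensus sets were used for their regions only. The authors' read counts were not used here, so accessibility was compared by the presence and rank of peaks. Depth in reads is unknown, and the 47714 to 148874 summits per list stand in for it.

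A promoter was open where a summit lay within 1 kb of the gene start, and its strongest summit by -log10 p gave its rank. Groups of 3 were compared by two-sided exact permutation tests (smallest p = 0.1) and promoter sets by sign flips over libraries (smallest p = 0.03125). Sign flips take libraries of the same cell line as replicates and do not measure the spread between genes. Replicates are separate samples by label, and the study's methods describe each as 1 dish divided between treatments, so the spread may be partly technical. Copies elsewhere were searched with minimap2 2.31-r1302. Other work used Python 3.11.15, numpy 2.4.6 and scipy 1.17.1, and the code was tested on simulated data. Named members were those on the lists, the 10 with the highest minimum percentile, the 5 leading gained and lost (ties in genome order) and the 5 with the largest rank difference in each direction. Alternatives were -log10 q of at least 3, a 500 bp window, distance from coding gene starts alone, merged windows, peak overlap, equal summit numbers, fold enrichment, each library left out, a replicate block and, chosen after seeing the data, windows with copies left out and any annotated transcript start. A few sequences and genes are not reported here.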

Additional observations from a re-analysis of the deposited data

How the results depend on the processing

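The 4 comparisons of members with other promoters or between CpG classes kept their direction and p = 0.03125 (exact sign-flip permutation) with a stricter q, a 500 bp window, distance from gene starts alone and merged windows. The 3 comparisons of shares did so also with peak overlap and the equal number, and that of strength with fold enrichment. They were not recomputed with windows with copies left out or with any annotated start. With 1 library left out, 5 libraries allow no p below 0.0625. The differences then ranged from -45.13 to -44.97 percentage points against coding promoters, from -33.2 to -32.8 against other lncRNA promoters, from -24.2 to -23.5 percentile points for strength and from 44.4 to 45.5 percentage points between CpG classes. The treatment comparisons were less stable. The difference in the share of open members ranged from -3.53 to 1.83 with a library left out and was 0.662 at the equal number of summits, where it ranged from 0.520 to 1.84, the highest without SNDX-5613 replicate 3, and that of the within-file percentile ranged from -10.8 to 1.15. Leaving out SNDX-5613 replicate 3 turned the sign for the share in the full lists and for the within-file percentile, but not for the share at the equal number. The difference on the common set ranged from 0.688 to 1.96 with a library left out, the lowest without SNDX-5613 replicate 3, and was -5.45 by fold enrichment. For members with a CCAAT box it was -0.312 with a 500 bp window, -0.0168 with merged windows and -5.61 by fold, and ranged from -0.882 to 1.23 with a library left out. At -log10 q of at least 3, 4 members were gained, at the equal number 41 were gained and 9 lost, and by fold 70 were ranked higher. With a library left out, gained members ranged from 15 to 120, lost from 29 to 79, higher from 198 to 303 and lower from 149 to 335, since fewer libraries make these rules easier to meet. Shares over all promoters are given for the setting without SNDX-5613 replicate 3 but not for the other left-out libraries or the stricter q. Those counts are therefore not compared with other promoters. Leaving out SNDX-5613 replicate 3 gave the highest count of gained, higher and lower members and leaving out SNDX-5613 replicate 1 the highest count of lost. Other causes of these changes were not tested.

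Same-numbered libraries did not deviate together. The correlation of their deviations from the group means over the common set was 0.0308, -0.0136 and 0.0104 for numbers 1, 2 and 3, so the numbers were not used as pairs. With the replicate block the two-sided exact sign-flip p was 0.75 for the share of open members (-1.55), 0.25 at the equal number (0.662), 0.75 for the within-file percentile (-6.83), 0.25 for the common-set percentile (1.69) and 1 for members with a CCAAT box (0.411). The block changed no call, since 3 pairs allow no p below 0.25. Windows with copies left out gave 13 gained, 26 lost, 135 higher and 92 lower members. No share over all promoters is given for that setting, so these counts are not compared with other promoters. The use of any annotated start raised the open share to 23.2% ± 1.74 with DMSO and 21.6% ± 6.69 with SNDX-5613 (mean ± SD of 3 libraries). Both alternatives were chosen after seeing the data. Read depth is unknown, so a member without a summit in a list, above all in the short list of SNDX-5613 replicate 3, is not shown to be closed.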

Other observations

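Some members that looked closed at the gene's 5′ end were open elsewhere. Of the 8672 members with no summit at the gene start in any library, 160 had a summit within 1 kb of another annotated transcript start in all 6 libraries, and for 137 of these such a start lay more than 5 kb from coding transcript starts.

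Calls of rank by CpG class depended on the measure and on 1 library. By -log10 p in all 6 libraries, 57 CpG-rich members were ranked higher and 35 lower of 587, and 97 and 67 of 745 CpG-poor ones, beside 651 and 571 of 9130 CpG-rich and 121 and 160 of 1611 CpG-poor coding promoters. By fold enrichment there were 36 higher and 46 lower CpG-rich members (6.13% and 7.84%) and 34 and 98 CpG-poor ones (4.56% and 13.2%). All promoters of both classes were called in 7.62% and 6.42% of cases by this measure. Without SNDX-5613 replicate 3, the counts were 107 and 94 of 670 CpG-rich members (16.0% and 14.0%) and 196 and 241 of 1243 CpG-poor ones (15.8% and 19.4%). The shares over all promoters of both classes were then 12.7% and 12.9%.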
